A study of Mus musculus with 12 samples.

Results

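Retained-intron transcripts are transcript models in which sequence that other transcripts of the same gene splice out is kept as exon. The 300 described here were chosen by their level: among all transcripts that GENCODE M21, an annotation of the mouse genome build GRCm38, types as retained_intron, they had the highest mean estimated read count over the 12 libraries. They are 300 of 21840 such transcripts in the deposited files, of which 18356 had at least 1 read in some library, and 300 of 140658 transcripts in each file. They belong to 268 genes, and all but 2 lie in protein-coding genes. Their high level is therefore what selected them and is given only as a description.

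The libraries came from interscapular brown adipose tissue, the heat-producing fat depot between the shoulder blades, of male wild-type C57BL/6N mice aged 20 weeks, 6 labelled ctrl and 6 labelled cold. The treatment text, 24 h at 4 °C with 1 mouse per cage, is attached to both groups and is read here as the treatment of the cold mice; the colony was kept at 22 to 24 °C, and the housing of the ctrl mice on the last day is not stated separately, so single housing and cold cannot be told apart. The labels hold 6 cold mice although 3 are given in the series text, and the text on RNA extraction speaks of another fat depot than the tissue label does. Every library was made from the polyadenylated RNA of 1 mouse with its own number, kept the strand, and was sequenced from both ends over 50 nt.

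In spliced genes, an intron that stays in a polyadenylated RNA usually brings in a premature stop codon, and such RNAs are commonly held in the nucleus or removed by nonsense-mediated decay once they reach ribosomes. Retained introns in mammals are typically short and rich in G and C, and they are frequent in genes for splicing factors themselves, where retention is one way of lowering the output of the gene. The annotation class is broader than the process: it also holds short models that start or end inside an intron, and a read from an exon shared with the coding transcript can be assigned to either.

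Both kinds of model were present among the 300. In 133 an intron of a protein-coding transcript lay whole inside an exon, in 107 the 5′ end lay inside such an intron, in 39 the 3′ end did, in 2 both ends did, and 19 were of other shape. The sequences shown first are whole introns kept in 3 transcripts that the results turn on: Fasn-203, the retained-intron transcript with the most reads, and Traf4-203 and Pck1-202, which are among the largest rises and falls. Capitals mark the first 2 and last 2 bases of the intron and, in Fasn-203, the first stop codon in the reading frame of the coding transcript, TAG at base 19. The Fasn-203 intron (chr11:120808327-120808501, minus strand) is intron 41 of 42 in the coding transcript Fasn-205, the Traf4-203 intron (chr11:78160549-78160792, minus strand) is intron 6 of 6 in Traf4-201, and the Pck1-202 intron (chr2:173158089-173158191, plus strand) is intron 9 of 9 in Pck1-201. All 3 interrupt coding sequence, and the Traf4 and Pck1 introns shift the frame without a stop inside the intron. All sequences are 5′ to 3′ on the strand of the gene and were read from the GENCODE M21 transcript sequences.
Fasn-203 intron: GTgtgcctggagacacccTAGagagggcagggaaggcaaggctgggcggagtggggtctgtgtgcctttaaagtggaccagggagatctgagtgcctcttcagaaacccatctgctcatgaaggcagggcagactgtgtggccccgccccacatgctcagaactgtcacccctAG
Traf4-203 intron: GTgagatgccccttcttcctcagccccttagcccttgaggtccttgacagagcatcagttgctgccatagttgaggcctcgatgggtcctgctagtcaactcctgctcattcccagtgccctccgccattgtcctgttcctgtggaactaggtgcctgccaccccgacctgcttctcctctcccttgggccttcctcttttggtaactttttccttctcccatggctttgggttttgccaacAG
Pck1-202 intron: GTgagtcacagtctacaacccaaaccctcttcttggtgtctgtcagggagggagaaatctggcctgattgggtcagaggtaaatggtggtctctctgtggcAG

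The next set shows the border between intron and coding exon in transcripts that begin or end inside an intron and changed most in level or share. Each line has 30 intronic and 10 exonic bases, and capitals mark the last 2 bases of the intron for a transcript that begins in it and the first 2 for a transcript that ends in it. In these transcripts the intron border is part of the transcript and is not spliced. Cpne5-204 holds 76 bases of its intron (border at chr17:29184018-29184057), Clip1-206 holds 91 (chr5:123603710-123603749), 1700037H04Rik-204 holds 734 (chr2:131148285-131148324) and Pepd-202 holds 189 (chr7:35040641-35040680). Ergic1-204 begins 407 bases upstream of an exon (chr17:26624560-26624599) and runs 2178 bases into a later intron (chr17:26641695-26641734), and Car3-202 runs 1103 bases into intron 2 (chr3:14864438-14864477).
Cpne5-204, 5′ end in intron 10 of Cpne5-205: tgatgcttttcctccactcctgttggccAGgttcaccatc
Clip1-206, 5′ end in intron 17 of Clip1-204: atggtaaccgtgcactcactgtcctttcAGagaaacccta
1700037H04Rik-204, 5′ end in intron 3 of 1700037H04Rik-202: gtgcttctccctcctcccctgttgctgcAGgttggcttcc
Pepd-202, 5′ end in intron 12 of Pepd-201: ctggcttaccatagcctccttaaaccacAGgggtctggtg
Ergic1-204, 5′ end in intron 3 of Ergic1-206: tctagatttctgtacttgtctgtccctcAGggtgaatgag
Ergic1-204, 3′ end in intron 9 of Ergic1-206: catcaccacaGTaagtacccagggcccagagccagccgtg
Car3-202, 3′ end in intron 2 of Car3-201: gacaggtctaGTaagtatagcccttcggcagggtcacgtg

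**Figure D1:**
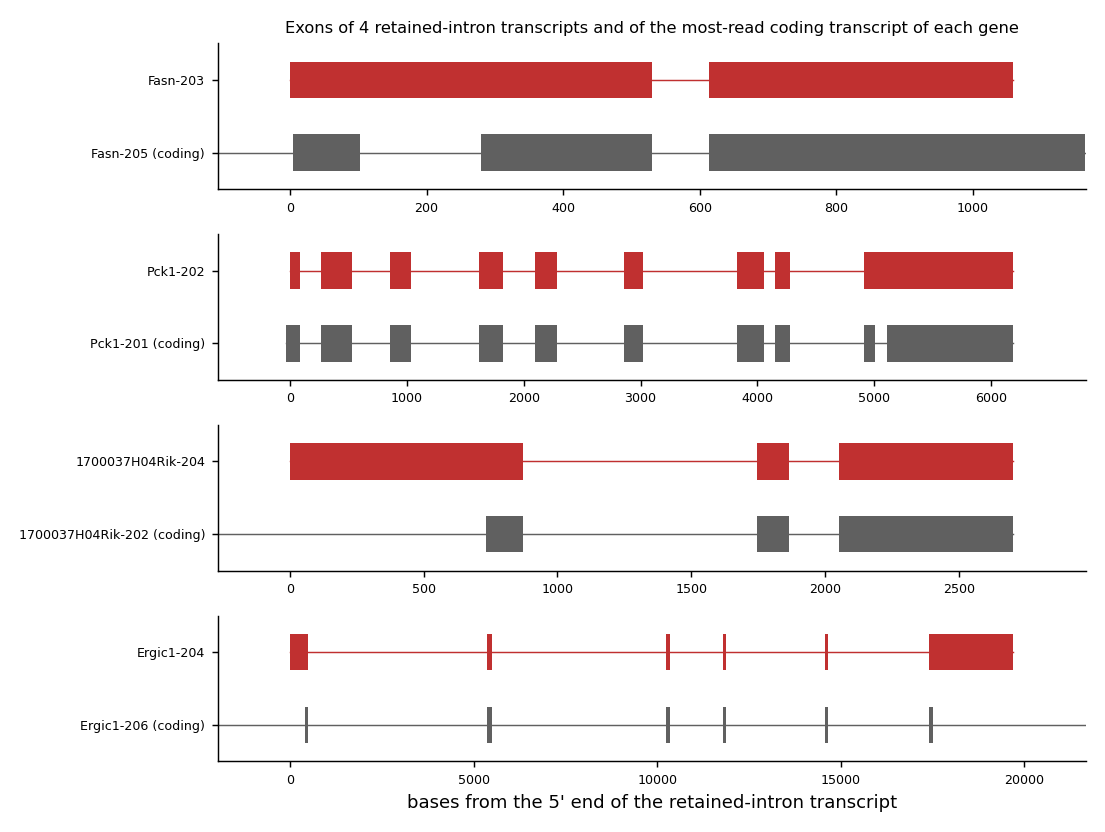
Exons (boxes) and introns (lines) of 4 retained-intron transcripts (red) above the protein-coding transcript of the same gene with the most reads (grey), by distance in bases from the 5′ end of the retained-intron transcript. Fasn-203 and Pck1-202 hold a whole intron (175 and 103 bases) inside an exon, 1700037H04Rik-204 starts 734 bases upstream of a coding exon, and Ergic1-204 starts and ends inside introns.

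The whole introns kept in the 133 transcripts were 247 different introns. Their median length was 275 bases (quartiles 123 and 648), against 428 bases (quartiles 147 and 1295) for the 1502 other introns of the coding transcripts of the same genes. The intron lengths of the other retained_intron transcripts were alike, with a median of 279 bases over 8451 introns. Of the 247 introns 212 interrupted coding sequence, 20 lay in a 3′ UTR and 15 in a 5′ UTR. In 189 of the 212 coding introns the intron held a stop codon in the frame of the upstream exons, in 16 the frame was shifted with no stop inside the intron, and in 7 the frame was kept. The shares in the other retained_intron transcripts were 89.0%, 7.98% and 3.02%, against 89.2%, 7.55% and 3.302% here.

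Splice sites of the kept introns were of the common kind: 237 of 247 began with GT and ended with AG, and 5 began with GC and ended with AG. Introns beginning GTGAG made up 34.6% of the 246 with a readable 5′ splice site and introns beginning GTAAG 13.4%, against 29.4% and 21.1% in the other retained_intron transcripts. None of the 246 began with GTATCC or ATATCC, the letters that mark introns of the minor spliceosome, where 0.522% and 0.178% did in the others. At shares this low, finding none among 246 introns does not set them apart. The median GC content was 54.8% inside the introns, 56.0% in the 50 bases upstream and 54.0% in the 50 bases downstream. These sequence counts are descriptions on the strand of the gene, and no test was made on them.

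The libraries held 15980000 to 31420000 estimated reads. Brown adipocyte markers were abundant in all of them, with Ucp1 at 6538 to 11110 CPM (read counts scaled to a common library size) in ctrl and 9207 to 11250 in cold. The summed level of 11 skeletal muscle markers ran from 111 to 1503 CPM in ctrl and from 164 to 4738 CPM in cold. A summed level of 4 white adipocyte markers was at 90.6 to 252 CPM in ctrl and 415 to 618 CPM in cold, most of it from Npr3 (91.9 and 464 CPM), while Lep was at 29.2 and 13.9 CPM and Agt near 0; the part of these markers in the results was not tested. The library ctrl 2 was doubted for the distorted scale of its TPM (abundance per unit of transcript length, scaled to a common sum), and cold 15 for its muscle markers, the highest of all; results are given with and without them where this changes a call. In whole tissue, fewer cells of a type and less RNA per cell cannot be told apart. The nuclear-retained RNAs Malat1 and Neat1 were at 1584 ± 205 and 2154 ± 201 CPM in ctrl and 1882 ± 486 and 1783 ± 186 CPM in cold (mean ± SD, n = 6 each).

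The 300 transcripts took a small and fairly even part of each library. They held 1.104% to 1.57% of all reads in ctrl (1.36% ± 0.171, SD, n = 6) and 1.09% to 1.44% in cold (1.19% ± 0.127, n = 6), and the groups overlapped. Without the 2 transcripts of Fasn, the gene of fatty acid synthase, the difference in means was gone, with shares of 1.11% ± 0.125 and 1.12% ± 0.0894. All 21840 retained_intron transcripts together held 2.64% ± 0.244 in ctrl and 2.37% ± 0.115 in cold, again with overlapping groups, and 46.7% to 56.1% of those reads lay on the 300. With reads of mitochondrial genes left out of the totals, the differences were wider and the groups still overlapped. The shares were then 1.70% ± 0.237 and 1.43% ± 0.152 for the 300, and 3.30% ± 0.341 and 2.84% ± 0.125 for all. The 3 deepest libraries, ctrl 6, ctrl 5 and cold 4, had the 3 highest shares on the 300 (1.57%, 1.52% and 1.44%); the part of depth in these values was not tested.

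**Figure D2:**
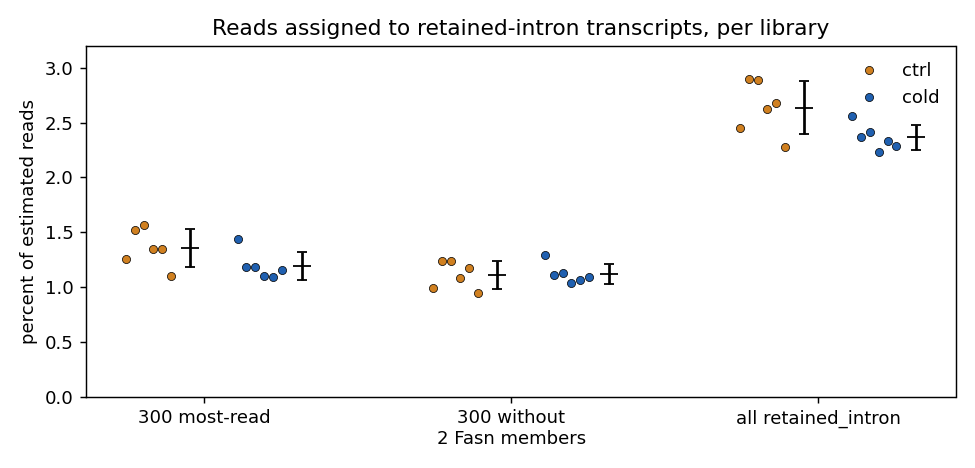
Percent of estimated reads per library on the 300 most-read retained-intron transcripts, on the same without the 2 Fasn transcripts, and on all retained_intron transcripts, in 6 ctrl (orange) and 6 cold (blue) mice; horizontal marks with bars are mean ± SD. The groups overlap in all 3, and the means of the 300 without Fasn are 1.11% and 1.12%.

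Levels were uneven within the 300. Mean CPM over the libraries ran from 9.71 to 937, with a median of 19.6 and quartiles of 14.0 and 33.1. The transcripts nearest to the limit were Akap8-212, Pon3-204 and Ccnl1-206 inside, with 231.5, 231.4 and 230.7 mean reads, and Rmnd1-206, Rbm25-206 and Pcsk4-206 outside, with 229.7, 229.6 and 229.3. As a share of the summed TPM of the gene in ctrl, the median was 22.7% (quartiles 10.4% and 39.3%). In 47 transcripts the share was over 50%, and in 71 it was under 10%. The median transcript was 2126 bases long (range 323 to 8612) and had 18.1% of its bases outside the exons of all other transcript types of its gene. For 72 transcripts fewer than 100 bases set them apart in this way, and for 5 none did, so the assignment of reads to them rests on few positions or on joins between exons. Exons of another gene overlapped 21 of the 300 on the same strand and 55 on the opposite strand.

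The transcripts with the highest mean CPM were mostly from genes of fat and energy metabolism. Fasn-203 (chr11:120807547-120808605), which holds the first printed intron, was at 532, 1570 and 2362 CPM (lowest, median and highest) in ctrl and at 88.3, 282 and 1079 CPM in cold. All cold libraries but cold 4 were below every ctrl library. Its log2 fold change, cold against ctrl, was -1.94 ± 0.54 (SE; adjusted p = 0.0395, edgeR), and this call was lost without ctrl 2 and cold 15 (-1.66, adjusted p = 0.0994) and in 10 of the 12 fits that left out 1 mouse. Without cold 4 the change was -2.58. Fasn-202, from the neighbouring exons, was at 733 to 1247 CPM in ctrl and 146 to 446 CPM in cold, without overlap.

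Acacb-204, from the gene of the mitochondrial acetyl-CoA carboxylase, spanned 398 to 1106 CPM in ctrl and 250 to 1202 CPM in cold, so the groups overlapped over most of their range. Its log2 fold change was -0.43 ± 0.37 (adjusted p = 0.604).

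Idh3a-203, from the gene of a subunit of the NAD-dependent isocitrate dehydrogenase of the TCA cycle, was at 280 to 497 CPM in ctrl and 380 to 694 CPM in cold, with overlap (0.36 ± 0.17, adjusted p = 0.259). Fabp4-202, a single exon of 4231 bases that spans all 3 introns of the gene of an adipocyte fatty acid binding protein, was at 303.2 to 445 CPM in ctrl and 276 to 373 CPM in cold (-0.32 ± 0.10, adjusted p = 0.0739). The rest of Fabp4 moved the other way and was called higher, 0.34 ± 0.11 (adjusted p = 0.0223). As a share of the TPM of its gene Fabp4-202 went from 0.475% to 0.732% in ctrl to 0.275% to 0.467% in cold, ranges that do not overlap; neither usage test described below called it (adjusted p = 0.669 with diffSpliceDGE and 0.102 with limma on log2 ratios).

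All 300 transcripts passed the filter on low counts and were tested together with all other transcripts. In cold 20 were higher and 32 lower at an adjusted p under 0.05 (quasi-likelihood test of edgeR, Benjamini-Hochberg adjusted over all transcripts), which is 6.67% and 10.7% of the 300. Over all 30345 transcripts tested, 10.3% were called, 6.21% higher and 4.06% lower. Since the 300 have many reads and calls depend on reads, the closer background is the 8537 other transcripts with at least as many reads as the last of the 300: there 23.0% were called, 16.0% higher and 7.05% lower. Among well-read transcripts of single types the called share was 23.6% for protein_coding (7991 transcripts), 16.7% for processed_transcript (192) and 8.97% for nonsense_mediated_decay (234). The median log2 fold change of the 300 was -0.09, against -0.02 over all transcripts tested and 0.08 over the other well-read ones.

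The counts moved with some settings. With library totals in place of TMM (trimmed mean of M-values) scaling they were 25 higher and 27 lower, without ctrl 2 and cold 15 together the lower count was 21, without cold 12 the higher count was 13, and without cold 4 the lower count was 43. The groups did not overlap in CPM for 38 of the 300 (12.7%), against 7.73% of all transcripts and 16.4% of the other well-read ones. Skeletal muscle markers differed widely between mice, and with their mean as a covariate 47 of the 52 calls held.

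By shape, transcripts with a whole intron inside had 9 called higher and 20 lower of 133. Those with the 5′ end in an intron had 6 and 9 of 107, and those with the 3′ end in an intron 3 and 2 of 39. The median log2 fold changes of these 3 classes were -0.12, -0.09 and 0.01.

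The largest rise was Cpne5-204, from the gene of copine 5, a calcium-dependent membrane-binding protein. It was at 0.455, 1.57 and 4.26 CPM in ctrl and at 43.8, 51.4 and 71.5 CPM in cold, so that the lowest cold library was far above the highest ctrl library. The log2 fold change was 4.90 ± 0.46 (adjusted p = 5.4e-05, edgeR). The rest of the gene rose too, from 0.837 ± 0.484 to 14.2 ± 3.17 CPM (4.03 ± 0.36), and the share of the retained-intron transcript in the TPM of the gene overlapped between groups, at 39.4% to 95.6% in ctrl and 64.2% to 76.8% in cold. The short model with its 76 bases of intron thus held most of the reads of Cpne5 in both groups, 67.2% in ctrl and 79.0% in cold. The transcripts described here were chosen by mean reads over both groups, and the lowest mean among them was 9.71 CPM. Cpne5-204, Ergic1-204 and Ptgds-205 were below that level in every ctrl library and entered through their cold libraries. Transcripts as low in ctrl that did not rise could not enter, so the place of these rises at the top partly follows from the choice.

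Ergic1-204, from the gene of a membrane protein that cycles between the endoplasmic reticulum and the Golgi, was at 2.19, 4.93 and 8.91 CPM in ctrl and at 40.98, 78.5 and 87.6 CPM in cold. Every cold library was above every ctrl library, and the log2 fold change was 3.84 ± 0.36 (adjusted p = 5.1e-05). The rest of Ergic1 rose less, from 111 ± 20.3 to 187 ± 13.2 CPM (0.75 ± 0.11, adjusted p = 5.1e-05). The intronic part of this model is large, 80.9% of its bases lying outside the exons of other transcript types.

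Ptgds-205 comes from the gene of the lipocalin-type prostaglandin D2 synthase. It was at 1.42, 3.73 and 5.27 CPM in ctrl and 17.7, 21.9 and 26.8 CPM in cold (2.70 ± 0.26, adjusted p = 7e-05), with no overlap, while the rest of the gene rose by 1.31 ± 0.15. This transcript begins inside intron 1 of the coding transcript Ptgds-201 and holds 256 bases of it. It also keeps the last intron, which lies in the 3′ UTR of Ptgds-201 and is 455 bases long. Its splice sites, with the first and last 2 bases of the intron in capitals, are shown because this is the only one of the largest rises with an intron kept in a UTR.
Ptgds-205, 5′ splice site: atgGTaagc
Ptgds-205, 3′ splice site: cctcttgttcttttgtccAGgtg

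1700037H04Rik-204, from a gene known only by its clone name, was at 101, 117 and 155 CPM in ctrl and 283, 335 and 448 CPM in cold (1.48 ± 0.13, adjusted p = 3e-05). The groups were well apart, and the rest of the gene went the other way, from 321 ± 33.2 to 212 ± 34.9 CPM (-0.59 ± 0.11, adjusted p = 0.000443). Clip1-206, from the gene of a linker protein of microtubule ends, was at 16.3 to 24.0 CPM in ctrl and 34.1 to 50.8 CPM in cold (1.03 ± 0.13, adjusted p = 0.000337), without overlap. The rest of Clip1 did not pass the test (0.30 ± 0.13, adjusted p = 0.0991). Traf4-203, which keeps the second printed intron and comes from the gene of a signalling adaptor of the TRAF family, was at 9.99 to 17.8 CPM in ctrl and 18.9 to 29.99 CPM in cold (0.83 ± 0.17, adjusted p = 0.00816). It rose with the rest of its gene (0.74 ± 0.07), and its share of the TPM of the gene was 5.71% to 9.31% in ctrl and 5.69% to 9.89% in cold.

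**Figure D3:**
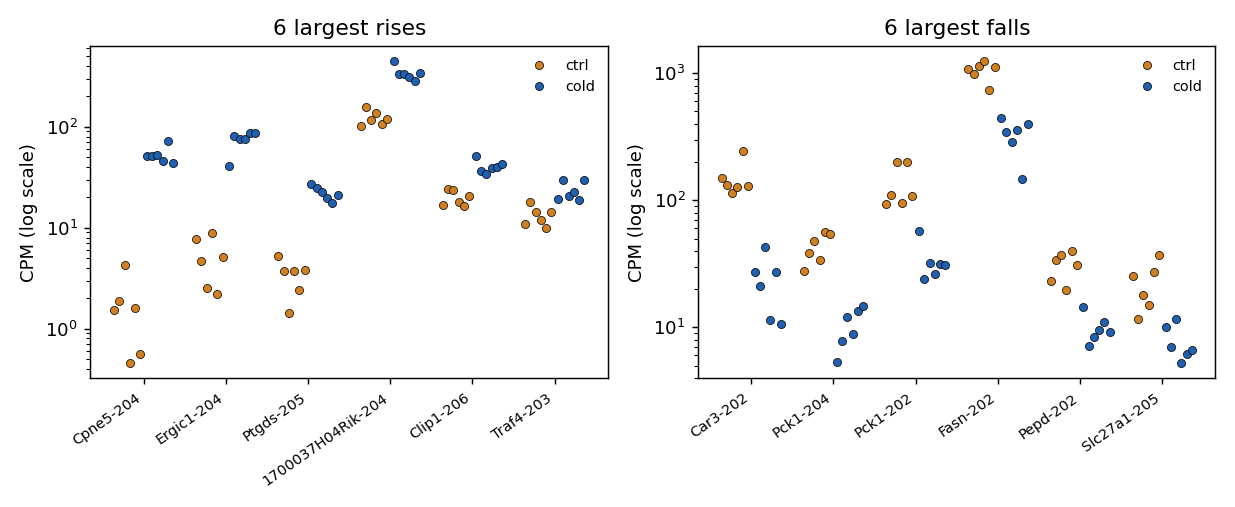
CPM on a log scale in 6 ctrl (orange) and 6 cold (blue) libraries for the 6 largest rises (left) and 6 largest falls (right) among retained-intron transcripts that passed the transcript test and whose groups did not overlap. Cpne5-204 goes from at most 4.26 CPM to at least 43.8 CPM, and Car3-202 from at least 113 CPM to at most 42.5 CPM.

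The largest fall that passed the test was Car3-202, from the gene of carbonic anhydrase 3, an abundant cytosolic protein of fat and muscle. It was at 113, 130 and 243 CPM in ctrl and 10.7, 24.3 and 42.5 CPM in cold, without overlap (-2.67 ± 0.34, adjusted p = 0.000454). The rest of the gene fell by the same size (-2.67 ± 0.28), and the share of Car3-202 in the TPM of the gene overlapped, at 9.16% to 13.2% in ctrl and 9.71% to 15.4% in cold. Car3 is also expressed in muscle, whose markers varied between these libraries as given above, and the part of muscle in this fall was not tested beyond the covariate fit, in which the transcript remained called.

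Pck1, the gene of the cytosolic phosphoenolpyruvate carboxykinase that feeds glycerol synthesis in fat, had 2 of the largest falls. Pck1-204 keeps intron 2 of the coding transcript, 322 bases long, and ends in intron 3. It was at 27.6, 43.2 and 56.2 CPM in ctrl and 5.32, 10.5 and 14.7 CPM in cold (-2.05 ± 0.26, adjusted p = 0.000449). Pck1-202, with the third printed intron, was at 93.7, 109 and 199 CPM in ctrl and 24.0, 31.3 and 57.3 CPM in cold (-1.99 ± 0.27, adjusted p = 0.000682). In both transcripts every cold library was below every ctrl library. The rest of the gene fell by less, from 4892 ± 812 to 2610 ± 196 CPM (-0.91 ± 0.11, adjusted p = 9.6e-06).

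Fasn-202 fell by 1.67 on the log2 scale (SE 0.23, adjusted p = 0.000715), and the rest of Fasn, from 27700 ± 6732 to 10380 ± 3817 CPM, by 1.42 (SE 0.27). Slc27a1-205, from the gene of a fatty acid transport protein, was at 11.7 to 36.8 CPM in ctrl and 5.22 to 11.7 CPM in cold, the highest cold library lying just below the lowest ctrl library (-1.52 ± 0.29, adjusted p = 0.00595). Pepd-202, from the gene of a dipeptidase that frees proline, was at 19.7, 32.4 and 39.7 CPM in ctrl and 7.16, 9.31 and 14.4 CPM in cold (-1.63 ± 0.21, adjusted p = 0.000426). The rest of Pepd did not pass the test and had a positive sign (0.22 ± 0.09, adjusted p = 0.0827).

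The other rises and falls were smaller, and those given here were named after their values were seen. Among the rises, Clptm1-208, from the gene of a transmembrane protein, was at 89.5 to 125 CPM in ctrl and 139 to 186 CPM in cold, without overlap (0.56 ± 0.09, adjusted p = 0.00176). Atg4d-203, from the gene of a protease of autophagy, was at 59.6 to 76.7 CPM in ctrl and 98.1 to 123 CPM in cold (0.66 ± 0.08, adjusted p = 0.000258); an exon of Kri1 overlaps it on the opposite strand. In both the rest of the gene rose by a similar size (0.66 ± 0.12 and 0.61 ± 0.18). Genes of mitochondrial proteins were on both sides: Mtx2-203 (0.57 ± 0.14), Ghitm-203 (0.58 ± 0.14) and Gfm1-202 (0.58 ± 0.12) rose, and Slc25a3-208 (-0.69 ± 0.13), Isca2-205 (-0.38 ± 0.09) and Me3-203 fell. Of these Ghitm-203 and Isca2-205 were not called without ctrl 2 and cold 15 (adjusted p = 0.086 and 0.0794).

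Several falls had no call in the rest of the gene. Safb-204, from the gene of a protein that binds nuclear scaffold and RNA, was at 33.2 to 40.2 CPM in ctrl and 22.9 to 32.6 CPM in cold (-0.39 ± 0.09, adjusted p = 0.0152), with the rest of the gene at -0.01 ± 0.09; with library totals it was not called (adjusted p = 0.108). Arglu1-204, from the gene of an arginine- and glutamate-rich protein of transcription and splicing, was at 24.2 to 32.2 CPM in ctrl and 17.6 to 19.6 CPM in cold (-0.53 ± 0.08, adjusted p = 0.00098), without overlap, with the rest at -0.02 ± 0.11; it contains the microRNA gene Mir7654. Me3-203, from the gene of a mitochondrial malic enzyme, was at 16.4 to 21.8 CPM in ctrl and 9.16 to 15.2 CPM in cold (-0.59 ± 0.13, adjusted p = 0.00971), with the rest at -0.01 ± 0.10. Rsrp1-204, from the gene of an arginine- and serine-rich protein and one of the more abundant transcripts, was at 252 to 350 CPM in ctrl and 215 to 256 CPM in cold, where the groups just overlapped (-0.34 ± 0.08, adjusted p = 0.0182). It was not called without ctrl 2 and cold 15 (adjusted p = 0.0588) or with library totals (adjusted p = 0.0696).

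The lowest log2 fold change of all was that of Nrbp2-207, -2.86 ± 1.11, which did not pass the test (adjusted p = 0.145). It was at 7.73 to 37.6 CPM in ctrl and 0.00 to 7.496 CPM in cold, and none of its bases lie outside the exons of other transcript types of its gene. The groups were just apart, and the values within each varied widely. In every cold library Nrbp2-207 was below 9.71 CPM, the lowest mean level among the transcripts described here. It therefore entered through its ctrl libraries. Transcripts as low in cold that were no higher in ctrl could not enter, so the place of Nrbp2-207 partly follows from the choice. The choice by mean reads thus bears on falls as well as on rises.

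The genes that hold these transcripts were tested on the sum of all their transcripts. Of the 268 genes, all tested, 69 were higher in cold and 58 lower (25.8% and 21.6%), against 16.2% and 15.4% of the 13876 genes tested. With library totals the split was 85 and 38. When the reads of the 300 were taken out of the gene sums, 61 of the 268 were higher and 44 lower, against 16.1% and 15.2% over all genes tested. The 268 genes were picked through well-read transcripts, and calls depend on reads. No background of genes with as many reads was counted, so neither comparison sets the 268 apart from other well-read genes.

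The change of a retained-intron transcript was set beside that of the rest of its gene, summed without the reads of the 300. Of the 52 called transcripts 35 had a rest of the gene called the same way, 15 had one that was not called, and 2 had one called the other way. The 2 were 1700037H04Rik-204 and Elp5-203, the latter named after its values were seen. Elp5-203, from the gene of a subunit of the Elongator complex that modifies tRNA, was at 9.51 to 18.7 CPM in ctrl and 16.3 to 31.7 CPM in cold (0.81 ± 0.18, adjusted p = 0.0138), while the rest of the gene fell by 0.51 on the log2 scale (SE 0.12, adjusted p = 0.00478).

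Over all genes tested without the reads of the 300, 31.3% were called. Of the 248 transcripts that were not called, 84 had a rest of the gene that was, 53 higher and 31 lower. Of these 53, 14 transcripts had a negative log2 fold change. A log2 ratio was also taken of each transcript to all other transcripts of its gene, here with others of the 300 included. It was lower in cold for 217 of the 300 (72.3%), with a median change of -0.18. Among the other well-read transcripts 41.5% had a lower ratio, with a median change of 0.09, and over all transcripts tested the median change was -0.05. This ratio is the measure on which the limma usage test below was run, and the transcripts of 1 gene share their denominators. Most of the other well-read transcripts were protein_coding, and a higher ratio of 1 transcript lowers the ratios of others in its gene. The 72.3% and 41.5% are therefore not independent, and no ratio counts were made for single other types.

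**Figure D4:**
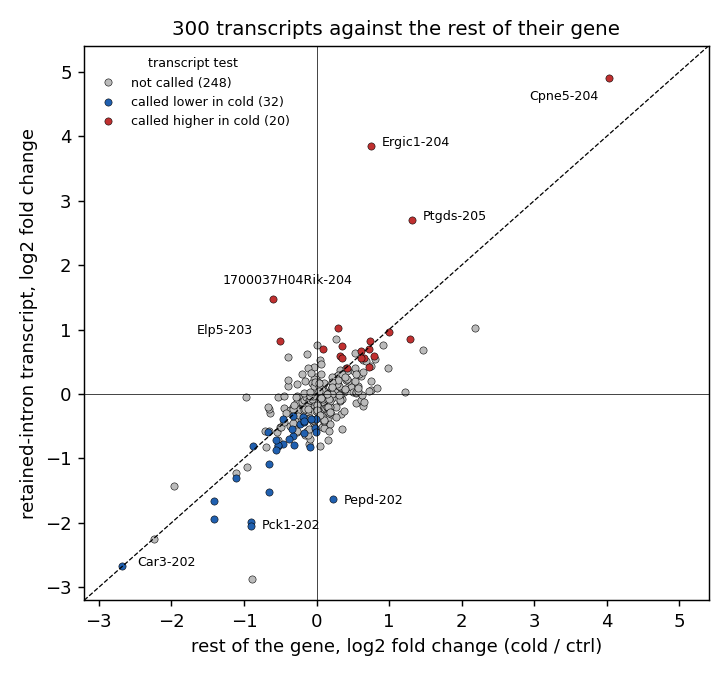
Log2 fold change (cold against ctrl) of each of the 300 retained-intron transcripts (vertical) against that of the rest of its gene without the reads of the 300 (horizontal); colour gives the call of the transcript test (20 higher, 32 lower, 248 not called) and the dashed line marks equal change. Ergic1-204, Ptgds-205, 1700037H04Rik-204 and Elp5-203 lie above the line and Pepd-202 below it.

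Usage, the part of a gene's output held by a transcript, was tested in 2 ways. The main test, edgeR's diffSpliceDGE, called 2 of the 300 with a larger share in cold and 1 with a smaller share. Over all 24107 transcripts in it these calls were 0.0415% and 0.0332%, and over the 6571 other well-read ones 0.0609% and 0.0457%. At an unadjusted p under 0.05 it had 18 of the 300, against 2.28% of all. An added test, limma on log2 ratios of a transcript to the rest of its gene, called 3 with a larger and 3 with a smaller share. Its calls were 0.336% and 0.295% over all transcripts, and 0.822% and 0.578% over the other well-read ones, the closer background. Among the larger-share calls were Ergic1-204 in both tests and Ptgds-205 with limma. As said above, both entered the 300 through their cold libraries, so the choice favoured their rise. The counts with a larger share are therefore not free of the choice. The count with a smaller share depended on the mice included: it was 8 without cold 4, 0 without ctrl 6, cold 7 or cold 12, and 2 without ctrl 2 or cold 16. Shares of summed TPM did not overlap between groups in 12 transcripts (4.00%), 4 with a larger and 8 with a smaller share in cold, against 1.75% of all transcripts in the usage test and 2.91% of the other well-read ones.

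1700037H04Rik-204 had the largest change in share. It held 16.5%, 21.1% and 25.8% (lowest, median and highest) of the TPM of its gene in ctrl and 50.3%, 52.8% and 57.7% in cold, and 28.1% and 61.8% of the reads on average. The adjusted p was 0.000569 with diffSpliceDGE and 1.2e-05 with limma, where the log2 ratio rose by 2.06 ± 0.12. Ergic1-204 held 1.55%, 3.05% and 4.68% in ctrl and 14.2%, 23.4% and 26.8% in cold (adjusted p = 1.2e-08 with diffSpliceDGE and 0.000757 with limma; log2 ratio 3.18 ± 0.29). In both genes every cold library was above every ctrl library, and cold 4 was the lowest of the cold libraries for Ergic1-204.

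Ptgds-205 was called by limma alone (log2 ratio 1.47 ± 0.29, adjusted p = 0.0477), with shares of 13.0% to 41.9% in ctrl and 48.8% to 55.6% in cold. Elp5-203 had 24.6% to 45.6% in ctrl and 46.1% to 68.3% in cold, groups that nearly touch, and was called by neither test (limma, adjusted p = 0.0641).

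Of the smaller shares, Pck1-202 went from 1.91% to 3.98% in ctrl to 0.948% to 1.83% in cold (adjusted p = 0.00507 with diffSpliceDGE and 0.0547 with limma). Pepd-202 went from 61.7%, 69.3% and 76.3% in ctrl to 30.6% at the lowest and 42.9% at the highest in cold, a wide gap, and was called by limma (log2 ratio -1.86 ± 0.20, adjusted p = 0.00182) and not by diffSpliceDGE (adjusted p = 0.123). Without cold 4, diffSpliceDGE called Pepd-202 (adjusted p = 0.0251). The 2 others that limma called, named after their values were seen, were Sugt1-205, from the gene of a co-chaperone, and 4931406C07Rik-207. In both the transcript stayed near its level, at 11.3 ± 2.93 and 12.1 ± 1.36 CPM for Sugt1-205 in ctrl and cold, while the rest of the gene rose (0.83 ± 0.09 and 0.75 ± 0.08).

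**Figure D5:**
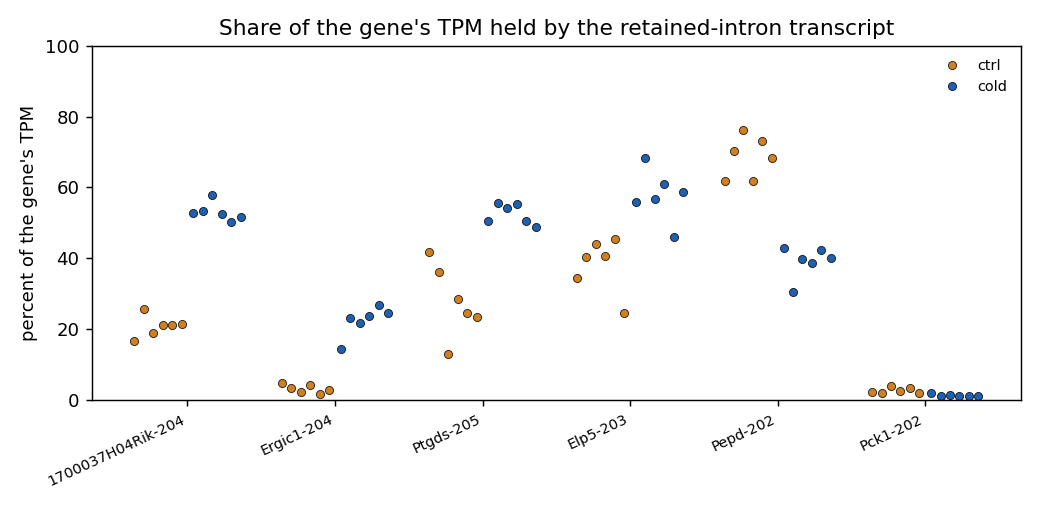
Percent of the summed TPM of the gene held by 6 retained-intron transcripts in each of 6 ctrl (orange) and 6 cold (blue) libraries. 1700037H04Rik-204 moves from at most 25.8% to at least 50.3%, and Pepd-202 from at least 61.7% to at most 42.9%.

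Genes with several of the 300 allowed transcripts of 1 gene to be compared. There were 25 such genes with 57 of the transcripts, which share exons and so are not independent. Vegfa, the gene of the main growth factor of blood vessels, had 4: Vegfa-206 was at 28.9 to 35.9 CPM in ctrl and 28.4 to 34.9 CPM in cold, and the log2 fold changes of the 4 were -0.20 to -0.00 with adjusted p of 0.474 to 0.994. Ifi27, an interferon-induced gene of a small mitochondrial protein, had 3 with changes of -0.14 to 0.02, while the rest of the gene was called higher (0.54 ± 0.15, adjusted p = 0.0123). Ltbp3, the gene of a protein that binds latent TGF-beta, had 3 with changes of 0.13, 0.22 and 0.58, none called, and the rest of the gene was called lower (-0.39 ± 0.09, adjusted p = 0.00366). In Ltbp3-211 the ctrl libraries lay at 24.1 to 59.1 CPM and the cold libraries other than cold 4 at 55.6 to 72.0 CPM, with cold 4 at 19.9 CPM.

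The transcripts were also counted by function of their gene, to be read against the 6.67% higher and 10.7% lower and the median of -0.09 over all 300. Several of those counted share a gene and exons. Counts of genes in the lists are to be read against the 16.2% higher and 15.4% lower of all genes tested. Of 7 transcripts in the list of fatty acid and sterol synthesis 3 fell (Fasn-202, Fasn-203 and Mlxipl-205) and none rose, with a median log2 fold change of -1.13; of the 28 genes of that list 14 were lower and 4 higher. Mlxipl-205, from the gene of the carbohydrate-responsive factor ChREBP, averaged 38.9 ± 9.72 CPM in ctrl and 25.8 ± 3.38 CPM in cold (-0.59 ± 0.16, adjusted p = 0.0356), a call lost in 10 of the 12 fits with 1 mouse left out, without ctrl 2 and cold 15 (adjusted p = 0.144) and with the muscle covariate (adjusted p = 0.0747). Of the 3 falls Fasn-202 alone was called without ctrl 2 and cold 15. Of 9 transcripts in the list of triglyceride turnover, lipid uptake and fatty acid activation 4 fell (both of Pck1, Slc27a1-203 and Slc27a1-205) and none rose, though 18 of the 38 genes of that list were higher and 7 lower. Slc27a1-203 was at 27.35 to 55.05 CPM in ctrl and 16.9 to 20.7 CPM in cold (-1.08 ± 0.14, adjusted p = 0.000542), without overlap.

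In the other metabolic lists few of the transcripts passed the test. None of the 3 in thermogenic genes did (Letmd1-205, Letmd1-210 and Esrra-202, log2 fold changes -0.02, -0.11 and -0.01), where 15 of 28 thermogenic genes were higher and 1 lower. The rest of Letmd1, a gene of a mitochondrial protein of brown fat, was called higher (0.33 ± 0.08), and so was the rest of Esrra, the gene of the nuclear receptor ERR-alpha (0.31 ± 0.10). None of 9 in genes of mitochondrial oxidation and the TCA cycle passed. Of 9 in genes of glucose metabolism 2 fell, Aldoa-206 (-0.83 ± 0.20, adjusted p = 0.0218), from the gene of a glycolytic aldolase, and Tkt-206 (-1.30 ± 0.29, adjusted p = 0.0123), from the gene of transketolase. Without ctrl 2 and cold 15 neither was called (adjusted p = 0.101 and 0.0593). An exon of Fam57b overlaps Aldoa-206 on the opposite strand, and the microRNA gene Mir3076 lies within Tkt-206. Calr-204, in the gene of a chaperone of the endoplasmic reticulum and the sole transcript in the chaperone list, was at 22.6 and 38.3 CPM on average (0.76 ± 0.24, adjusted p = 0.0659), while 14 of the 25 genes of that list were higher and none lower.

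Splicing factors and related genes held 21 of the 300 in 17 genes. None of the 21 rose and 5 fell, where 10.7% of all 300 fell. A negative log2 fold change was found in 20 of the 21 and in 182 of the 300 (60.7%). With library totals as scaling these counts were 17 and 158, and without cold 4 they were 17 and 200. Snrnp70-216, from the gene of a protein of the U1 particle that recognises 5′ splice sites, was at 119, 128 and 133 CPM in ctrl and 92.1, 98.6 and 106 CPM in cold, without overlap (-0.36 ± 0.05, adjusted p = 0.000833). Luc7l2-203, from another gene of a U1-associated protein, was at 34.6 to 48.2 CPM in ctrl and 19.3 to 27.2 CPM in cold (-0.78 ± 0.10, adjusted p = 0.000447).

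Srsf2-203 and Srrm2-209, from genes of an SR splicing factor and of an SR-rich matrix protein of the spliceosome, fell too. Srsf2-203 keeps sequence that coding transcripts remove as introns of the 3′ UTR and was at 31.3 to 42.2 CPM in ctrl and 24.7 to 33.4 CPM in cold, with overlap (-0.41 ± 0.09, adjusted p = 0.0124); an exon of Mettl23 overlaps it on the opposite strand. Srrm2-209 was at 24.97 to 44.9 and 14.6 to 24.6 CPM (-0.79 ± 0.17, adjusted p = 0.0112). The rest of the gene was called lower for Luc7l2 (-0.46 ± 0.07) and Srrm2 (-0.53 ± 0.15) and was not called for Snrnp70 (-0.18 ± 0.14) and Srsf2 (-0.17 ± 0.09). None of the 21 was called by either usage test in the main fits. Both tests find few changes: in counts simulated with known changes, diffSpliceDGE found 0% of 2-fold and 18.2% of 4-fold changes. Limma on log2 ratios found 7.81% and 27.3%. The lack of calls therefore does not show that the shares of the 21 were unchanged.

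Of the 153 genes in these lists of splicing, decay and nuclear retention 151 were tested, with a median log2 fold change of 0.00. In cold 19 of them were higher and 21 lower, where 16.2% and 15.4% of all genes tested were. With library totals the split was 33 and 8, and without ctrl 2 and cold 15 the higher count was 11. The SR protein list had 4 higher and 5 lower of 15, among them Srsf3 (56.1 ± 5.13 to 69.3 ± 6.95 CPM, 0.30 ± 0.08) and Srsf6 (89.0 ± 3.27 to 105 ± 2.82 CPM, 0.24 ± 0.06) on 1 side and Srrm2 on the other. The list of the exon junction complex and nonsense-mediated decay, the machinery that removes RNAs with premature stops, had 3 higher and 1 lower of 16, with Smg5 at 81.7 ± 7.92 and 109 ± 8.23 CPM (0.42 ± 0.08, adjusted p = 0.00069). The minor spliceosome list had 3 lower and none higher of 9, and the list of nuclear-retained non-coding RNA 4 lower and none higher of 9. Both lists are short and were chosen with earlier results known, and no test was made on them as sets.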

How the data were processed

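Poly(A) RNA of 12 libraries was analysed. The deposited files give, per the file headers, estimated counts (NumReads), TPM and effective lengths per transcript, made, per the submitters' processing notes, with bcl2fastq, cutadapt and Salmon on GRCm38 (no versions named). No annotation release is given in the sources used here. Transcripts were matched by identifier without version to GENCODE M21 (140137 of 140658). The 300 transcripts and all gene lists were chosen with earlier results of these data known. Counts were rounded, filtered (filterByExpr, minimum count 10), TMM-scaled and tested with edgeR's robust quasi-likelihood fit over all transcripts or genes, Benjamini-Hochberg adjusted, threshold 0.05. Usage was tested with diffSpliceDGE, which assumes 1 spread per gene, and with limma on log2 ratios (pseudocount 0.5). In a check on simulated data both missed most 2-fold and 4-fold changes, and diffSpliceDGE made more false calls than limma on log2 ratios. Limma's diffSplice made the most false calls. Introns under 50 bases were ignored. Named were the 6 most abundant, the 6 largest rises and falls without overlap, the called usage changes without overlap, the 3 genes with most members, ranks 298 to 303 and members in fixed lists; some of these are not reported here. Estimated counts carry assignment error that is not in these tests. Alternatives were RLE factors, library totals, other filters, DESeq2, limma-voom, diffSplice, a muscle covariate, TPM shares, other set sizes and left-out mice. Tools were R 4.3.3, edgeR 4.0.16, limma 3.58.1, DESeq2 1.42.0, Python 3.11.15, NumPy 2.4.6, pandas 2.3.3 and matplotlib 3.10.9.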

Additional observations from a re-analysis of the deposited data

Results flagged for a closer look

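In 108 groups of 6 libraries examined (the 2 library shares, and CPM and TPM share of each named transcript), 23 had a highest or lowest library further from the others than Dixon's 95% limit; chance flags about 1 in 20 groups, and values of 1 gene or 1 library are not independent. Cold 4, the deepest library, was the far one in 13 of them: the share of reads on the 300 (1.44%), the CPM of Fasn-203 (1079), Ergic1-204 (40.98), 1700037H04Rik-204 (448.1), Pck1-202 (57.3), Ifi27-206 (93.21), Ltbp3-211 (19.85) and Ltbp3-210 (15.98), and the percent of the TPM of the gene held by Fasn-203 (46.26), Acacb-204 (73.96), Ltbp3-202 (42.45), Ltbp3-211 (4.168) and Ltbp3-210 (2.124).

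The other far libraries were, for CPM, cold 16 for Fabp4-202 (373.1), ctrl 6 (4.26) and cold 15 (71.55) for Cpne5-204, ctrl 10 for Car3-202 (242.9), cold 7 for Vegfa-208 (10.46) and cold 11 for Ifi27-208 (22.18). For the percent of the TPM of the gene they were cold 11 for Car3-202 (15.45), cold 7 for Pepd-202 (30.55) and Vegfa-208 (9.573), and ctrl 14 for Ifi27-208 (7.738). No cause was tested.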

How the results depend on the processing

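No paired analysis was possible because the mouse numbers differ between the groups. The count of lower transcripts was 32, and 21 without ctrl 2 and cold 15. Among the 100 most-read transcripts 11 were higher and 14 lower, and among 600 51 were lower, as sets of other size give. The count with a smaller share was 1; it was 0 with no filter, 2 with a minimum count of 30 or the muscle covariate, 7 with limma's diffSplice and 3 with limma on log2 ratios. With library totals 38 genes holding members were lower, and 33 splicing genes higher and 8 lower; without ctrl 2 and cold 15, 11 splicing genes were higher. The mean share of reads on the 300 differed by -0.165 percentage points, and by 0.009001 without the 2 Fasn transcripts; for all retained_intron transcripts it was -0.271, and 0.0836 as a share of deposited TPM, whose scale is distorted in ctrl 2. The medians of that TPM share were 3.085% in ctrl and 2.867% in cold, with ctrl 2 at 1.388%, so the positive sign holds for the means only. With reads of mitochondrial genes left out of the totals, the mean read shares differed by -0.268 (the 300) and -0.462 (all retained_intron transcripts). The cause was not tested where none is given. With 1 mouse left out the counts ran from 13 to 19 (higher), 25 to 43 (lower), 2 to 2 (larger share), 0 to 8 (smaller share), 61 to 76 and 48 to 69 (genes holding members) and 15 to 24 and 18 to 24 (splicing genes), and the shares differed by -0.215 to -0.122 and by -0.342 to -0.22. Of the 52 calls 38 held in all 12 such fits, 47 with library totals, 35 without ctrl 2 and cold 15, and 50 with both DESeq2 and limma-voom. For single named transcripts, 526 of 546 values under alternatives kept their side of the threshold or moved by less than 1 SD, 12 lost a call (all Fasn-203), 4 gained one (Fabp4-202) and 4 shares moved further. Estimated reads are split between overlapping transcripts, and the error of that split was not analysed here.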

Other observations

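The share of a transcript in its gene followed the 3 deepest libraries (ctrl 5, ctrl 6 and cold 4) more often here than among coding transcripts. In 36 of the 300 (12.0%) the TPM share was higher in each of these 3 libraries than in each of the other 9, against 3.50% of 6140 well-read protein_coding transcripts, 9.61% of 229 nonsense_mediated_decay and 16.0% of 181 processed_transcript transcripts. The share was lowest in all 3 for 13 of the 300 (4.33%) and for 4.02%, 5.24% and 5.53% of the other types. Fasn-203, Acacb-204, Hadhb-208, Letmd1-210, Tkt-208, Srrm2-209 and Sf3b2-208 were among the 36, named after their values were seen. For transcripts over 3000 bases the median of length minus effective length was 120, 44.2 and 110 bases in ctrl 5, ctrl 6 and cold 4 and 112 to 243 in the others. The pattern was noticed in the data, and its source was not tested.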
